A study of Mus musculus with 6 samples.

Results

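Eph receptors and ephrins were examined in colon RNA of Islr knockout and control mice. The set holds 10 genes named for their place in this family, 7 receptors (Epha1, Epha2, Epha4, Ephb2, Ephb3, Ephb4 and Ephb6) and 3 ligands (Efna1, Efnb1 and Efnb2), out of 23462 named genes on the array. All 10 were found, through 13 of the 56605 probes: 3 genes had 2 probes and 7 had 1. The members share a family name, but the set was chosen with earlier results of these data known.

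Eph receptors are receptor tyrosine kinases that sit in the cell membrane and bind ephrins on a neighbouring cell. A-class ephrins hang on a lipid anchor and B-class ephrins cross the membrane, and binding can signal into both cells, usually as repulsion or as sorting of cells into compartments. In the intestinal crypt the receptors EphB2 and EphB3 are Wnt targets that are strongest toward the crypt base, ephrin-B1 and ephrin-B2 are stronger toward the differentiated end, and the opposed gradients keep proliferating and differentiated cells in place. In blood vessels ephrin-B2 marks arteries and its receptor EphB4 marks veins.

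The study used 6 male mice, 3 labelled control and 3 labelled Islr knockout, with 1 single-colour whole-genome Agilent array per animal. Islr codes for a secreted protein of leucine-rich repeats and an immunoglobulin fold. By the sample source all 6 animals, controls included, drank 3.5% dextran sulfate sodium (DSS), which injures the colonic epithelium, for 5 days and then recovered for 1 day, whereas a separate treatment field states no treatment. Strain, age, the deleted part of Islr and the cells in which it was deleted are not given in the sources used here. The design text says that the colon material was flow separated without naming a gate.

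Of the 10 members 9 had a higher mean signal in the knockout colon and 1, Ephb4, a lower one. The largest differences were those of Ephb2 (3.06-fold higher), Epha1 (2.62-fold), and the 3 ligands Efnb1 (2.19-fold), Efna1 (2.12-fold) and Efnb2 (2.09-fold), while Epha2, Epha4, Ephb3 and Ephb6 differed by 1.13-fold to 1.25-fold. The median log2 difference, knockout minus control, was 0.69 over the members against 0.01 over all 16451 tested genes, whose quartiles were -0.34 and 0.32. None of the 13 probes passed a 5% false discovery rate in limma, so 0 of 10 members were called. By the same rule 5% of all tested genes had a called probe and 3.82% were called at their brightest probe. Over all 35351 tested probes 3.97% were called, 1.55% higher and 2.42% lower in the knockout.

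Short of that threshold, 4 of the 10 members had an unadjusted p under 0.05 at their brightest probe, against 28.2% of all tested genes. All 4 were higher in the knockout, and 13.7% of all tested genes were higher with such a p. Over probes the count was 6 of 13, against 26.8% of all tested probes. An adjusted p under 0.1 was reached by the brightest probe of 4 members, against 14.8% of all tested genes. By direction the counts were 9 of 10 members higher, against 51.2% of all tested genes.

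**Figure D1:**
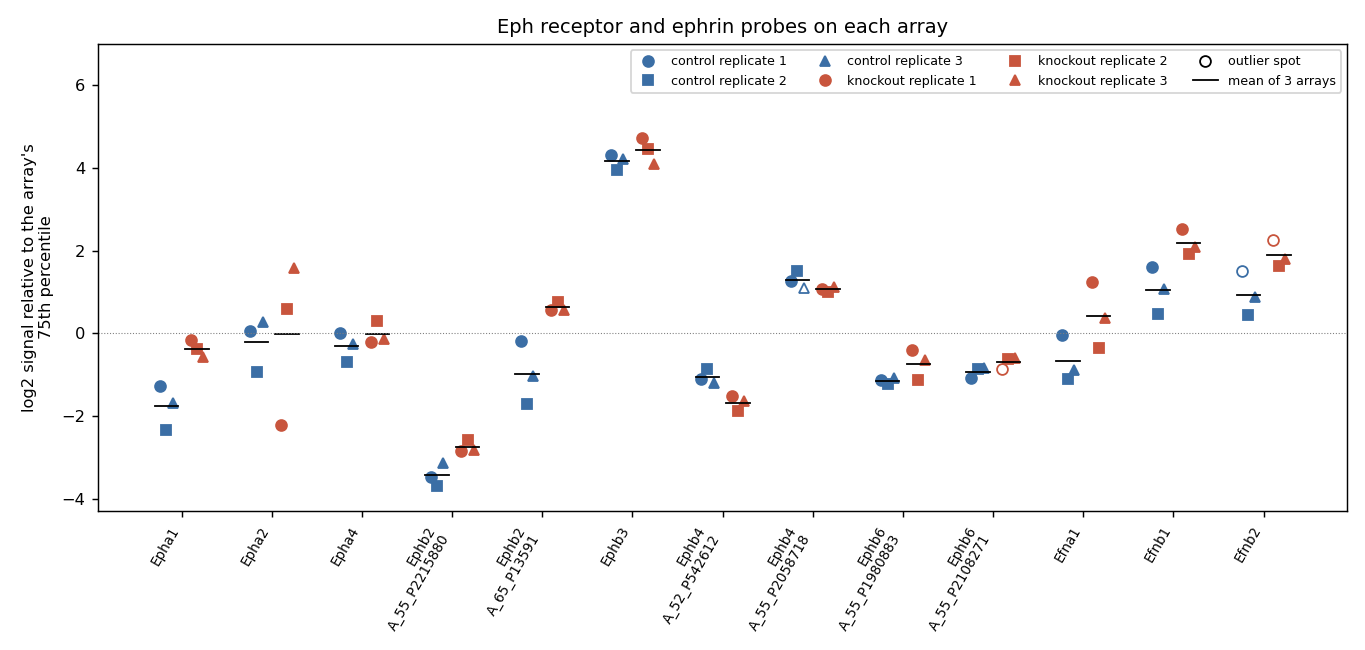
Log2 signal of each of the 13 Eph and ephrin probes on each array, relative to the array's 75th percentile (y axis), for controls (blue) and knockouts (red), with 1 symbol per replicate, open symbols for spots marked as outliers and a bar at the mean of 3 arrays. The knockouts lie above all controls for Epha1, both Ephb2 probes, Efnb1 and Efnb2, and below all controls for 1 Ephb4 probe.

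Values are log2 signals relative to the 75th percentile of the same array, so 0 marks that percentile and each step of 1 a doubling. Before scaling the percentile was 6353 to 7110 intensity units in controls and 4910 to 5820 in knockouts, and 69.4% to 75.4% of spots were well above background. Spots marked as outliers by the scanner software were treated as missing; they made up 13.6% and 16.0% of the spots of control replicate 1 and knockout replicate 1 and 3.26% to 9.05% elsewhere, with a larger share among bright spots. The genotype label was checked on Islr itself, which fell by 2.44 on the log2 scale in the knockout (SE 0.21, adjusted p 0.0171), from 1.23 ± 0.018 in controls (SD, n = 2) to -1.21 ± 0.25 in knockouts (SD, n = 3). The slide held the controls in its first row and the knockouts in its second, so row and genotype cannot be told apart. The labels name separate animals by title only, and the p-values measure the spread between these 6 samples. In bulk samples fewer cells of a type and less RNA per cell cannot be told apart.

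The 4 members with the lowest p-values at their brightest probe were Epha1, Ephb2, Efnb2 and Efnb1, all higher in the knockout. The 250 bases before the RefSeq start of each are shown because these members differed in the same direction and because EphB2 is a Wnt target, so that letters bound by the Wnt effectors TCF/LEF could be looked for. They come from RefSeq on build GRCm38.p6, 5′ to 3′ on the gene's strand, and capitals mark matches on either strand to any of 5 short motifs, none of which overlapped another match.
Epha1, chr6:42373269-42373518, minus strand: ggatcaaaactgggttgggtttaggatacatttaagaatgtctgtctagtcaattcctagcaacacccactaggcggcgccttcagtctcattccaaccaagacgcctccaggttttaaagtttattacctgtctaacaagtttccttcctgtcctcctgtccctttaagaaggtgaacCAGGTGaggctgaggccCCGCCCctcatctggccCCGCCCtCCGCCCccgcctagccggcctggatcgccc
Ephb2, chr4:136836013-136836262, minus strand: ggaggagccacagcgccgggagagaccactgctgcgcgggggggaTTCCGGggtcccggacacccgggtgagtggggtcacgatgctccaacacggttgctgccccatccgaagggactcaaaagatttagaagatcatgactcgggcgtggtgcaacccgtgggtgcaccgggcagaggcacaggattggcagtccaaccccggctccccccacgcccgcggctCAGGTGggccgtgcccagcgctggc
Efnb1, chrX:99135811-99136060, plus strand: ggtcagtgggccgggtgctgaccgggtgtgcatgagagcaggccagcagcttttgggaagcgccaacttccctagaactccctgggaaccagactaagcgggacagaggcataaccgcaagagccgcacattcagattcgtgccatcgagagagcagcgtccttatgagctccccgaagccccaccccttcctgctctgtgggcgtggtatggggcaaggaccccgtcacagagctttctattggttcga
Efnb2, chr8:8661243-8661492, minus strand: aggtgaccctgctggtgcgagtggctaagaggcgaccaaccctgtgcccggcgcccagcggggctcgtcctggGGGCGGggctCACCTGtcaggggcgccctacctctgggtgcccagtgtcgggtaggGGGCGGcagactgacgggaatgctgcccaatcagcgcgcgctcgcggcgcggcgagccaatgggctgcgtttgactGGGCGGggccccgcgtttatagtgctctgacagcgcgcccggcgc
The TCF/LEF core was searched as CTTTGA and as CTTTGT, and neither is in these 4 windows. Among the 11 windows of the 10 members CTTTGA occurred at Epha2 alone and CTTTGT at none, whereas 13.8% and 16.5% of all 32851 promoter windows of that length hold them. The GC box GGGCGG, bound by Sp and Klf factors, was present at 8 of the 10 members, against 32.7% of all windows. Here and below the members are counted as genes and the shares as windows. The 11 windows were 54.4% to 76.8% G or C, and no share over windows of like composition was computed. The ETS core CCGGAA was at 2 members (Ephb2 and Ephb6) against 12%, and CACCTG, the E-box read by Snail and Zeb factors, at 3 (Epha1, Ephb2 and Efnb2) against 17.2%. Efnb1 held none of the 5 motifs.

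Among the B-class receptors Ephb2 had the largest difference. It was measured by 2 probes. The brighter one (A_65_P13591) read -0.19, -1.72 and -1.02 in the controls, given here and throughout in the order of replicates 1, 2 and 3, against 0.57, 0.77 and 0.58 in the knockouts. The 3 knockouts lay close together and above every control, while the controls were spread more widely, with an SD of 0.77 against 0.11. On the log2 scale knockouts exceeded controls by 1.61 (SE 0.37, 95% interval 0.73 to 2.50), with an adjusted p of 0.0609. Its dimmer probe (A_55_P2215880) read -3.47, -3.70 and -3.12 in controls and -2.84, -2.58 and -2.82 in knockouts, again without overlap, a difference of 0.68 (SE 0.20, adjusted p 0.0899). Both probes gave the same direction, and the size they gave differed.

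Ephb3, the partner of Ephb2 in holding the crypt base compartment, had a smaller difference, which was not tested against that of Ephb2. It read 4.31, 3.94 and 4.22 in controls and 4.73, 4.47 and 4.09 in knockouts, far above the 75th percentile on every array, and the groups overlapped. The difference was 0.27 (SE 0.21, adjusted p 0.455), with a 95% interval of -0.24 to 0.78 that excludes a doubling. With normexp background correction and quantile normalization it was -0.021.

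Ephb4, the venous receptor of ephrin-B2, was the 1 member with a lower mean. Its brighter probe (A_55_P2058718) read 1.26, 1.5 and 1.1 in controls and 1.07, 1.00 and 1.12 in knockouts, with control replicate 3 marked as an outlier spot. Without that spot the groups did not overlap, and with it they did. The fit without it gave -0.32 (SE 0.18, adjusted p 0.308), and -0.22 was the difference with the spot kept. The dimmer probe (A_52_P542612) read -1.10, -0.85 and -1.21 against -1.51, -1.87 and -1.63, with every knockout below every control, a difference of -0.62 (SE 0.18, adjusted p 0.0876).

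Ephb6, a receptor whose kinase domain is catalytically inactive and which is known from T cells as well as epithelia, had 2 probes. The brighter (A_55_P2108271) read -1.08, -0.87 and -0.83 in controls and -0.86, -0.63 and -0.59 in knockouts, with an outlier spot on knockout replicate 1. The other (A_55_P1980883) read -1.14, -1.22 and -1.08 against -0.41, -1.13 and -0.64. Differences were small, 0.32 (SE 0.18, adjusted p 0.302) and 0.42 (SE 0.21, adjusted p 0.261), and the groups overlapped at both probes once all spots were kept. The 8 T cell markers tested had a median difference of -0.26, with 6 lower and 0 called, but that median moved from -0.48 when control replicate 1 was dropped to -0.0045 when knockout replicate 3 was.

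Among the A-class receptors Epha1 had the largest difference. This epithelial receptor read -1.27, -2.34 and -1.68 in controls and -0.17, -0.39 and -0.56 in knockouts, so that every knockout exceeded every control. Its difference of 1.39 (SE 0.29, 95% interval 0.70 to 2.08) had the lowest adjusted p of all members, 0.0520. The group means were -1.76 ± 0.54 and -0.37 ± 0.20 (SD, n = 3 each).

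Epha2, a receptor of epithelia that also signals without ligand, varied more than any other member between knockout animals. It read 0.06, -0.94 and 0.28 in controls but -2.22, 0.59 and 1.57 in knockouts. Knockout replicate 1 was the lowest and knockout replicate 3 the highest of the 6 arrays. The difference of 0.18 has a 95% interval of -2.05 to 2.41 (SE 0.93, adjusted p 0.922), and its sign depended on single arrays. Leaving out control replicate 2 turned it to -0.19. With knockout replicate 2 left out it was -0.12, and with knockout replicate 3 left out it was -0.62. Dropping knockout replicate 1, the lowest array, gave 1.28. Epha4, which binds ephrins of both classes, read 0.02, -0.69 and -0.26 in controls and -0.22, 0.30 and -0.13 in knockouts, with overlapping groups and a difference of 0.29 (SE 0.24, 95% interval -0.28 to 0.87, adjusted p 0.470).

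All 3 ligands of the set had higher means in the knockout, each by about a doubling. Efnb1, the X-linked transmembrane ligand of the EphB receptors, read 1.6, 0.47 and 1.08 in controls and 2.53, 1.92 and 2.09 in knockouts, without overlap. The difference was 1.13 (SE 0.32, 95% interval 0.37 to 1.89), with an adjusted p of 0.0862. Efnb2, its close relative, read 1.5, 0.44 and 0.88 in controls against 2.26, 1.64 and 1.81 in knockouts, also without overlap, and the spots of control replicate 1 and knockout replicate 1 were outliers. On the remaining 2 arrays per group the difference was 1.06 (SE 0.25, 95% interval 0.41 to 1.71, adjusted p 0.0831), and 0.96 with all spots kept. Efna1, a lipid-anchored ligand of EphA receptors that inflammatory cytokines can induce, read -0.04, -1.10 and -0.88 against 1.24, -0.36 and 0.37. Knockout replicate 2 lay below control replicate 1, so the groups overlapped, and the difference of 1.09 (SE 0.46, adjusted p 0.187) was the least certain of the 3.

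With all spots kept, the brightest probes of 4 of the 10 members (Epha1, Ephb2, Efnb1 and Efnb2) showed no overlap between the genotypes, against 38.2% of all tested genes, and over the usable arrays 6 of 10, against 41.1%. The first of these shares is near that of genes in general. Over probes with all spots kept it was 6 of 13, against 34.9%. All 4 of the former were higher in the knockout, a pattern shown by 19% of all tested genes. The exact permutation test gave p = 0.1 (two-sided) for each of the 4, the smallest value that 3 against 3 can give.

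**Figure D2:**
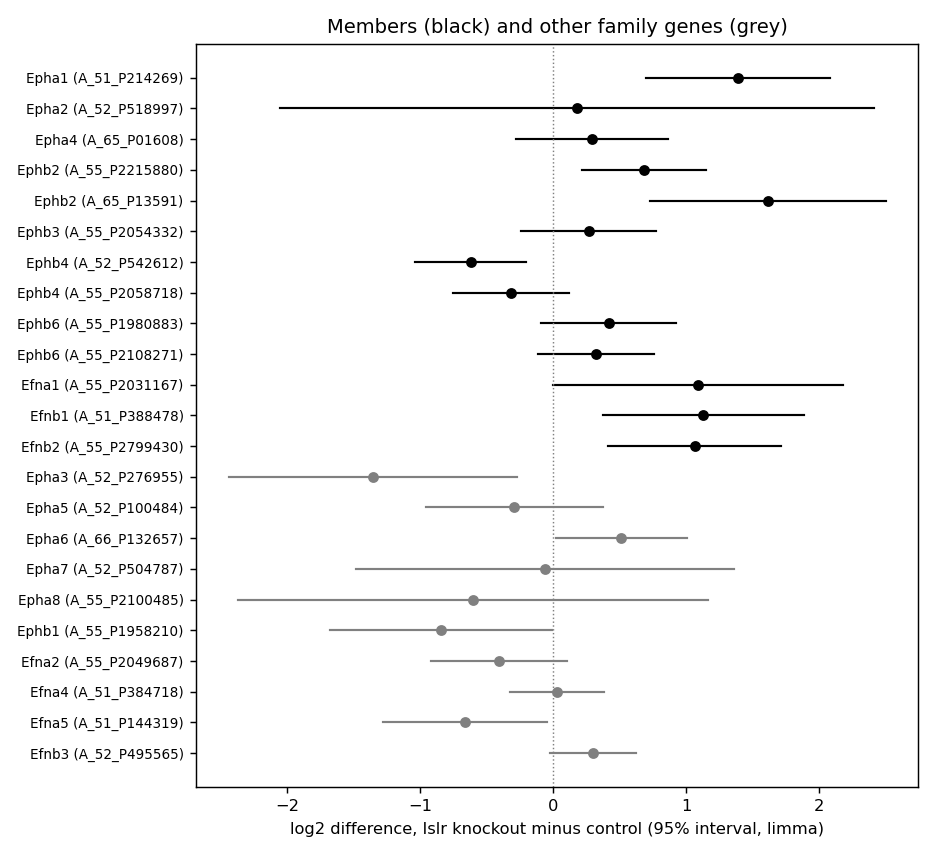
Log2 difference, Islr knockout minus control (x axis), with its 95% interval from limma for the 13 probes of the members (black) and the brightest tested probe of 10 other family genes (grey). Ephb2, Epha1 and the 3 ligands lie farthest to the right, Epha2 has the widest interval among the members, and most of the other family genes lie at or left of 0.

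The rest of the family was taken as the 12 other mouse Eph receptors and ephrins, of which 10 could be tested. Here 3 had higher and 7 lower means, and their median was -0.35. That value rested on knockout replicate 1: without it 5 of 11 were higher and the median was -0.02. Over the 8 genes above background on all 6 arrays 3 were higher and the median was -0.18. In limma 0 were called and 4 had an unadjusted p under 0.05, namely Efna5, Epha3, Ephb1 and Epha6. Efna5, a lipid-anchored ligand, had lower means at both tested probes, with differences of -0.66 (SE 0.26, adjusted p 0.163) and -0.68 (SE 0.19, adjusted p 0.114). Epha6, a receptor best known from neurons, had a higher mean, by 0.51 (SE 0.21, adjusted p 0.17). Epha3 and Ephb1 differed by -1.35 and -0.84, but each was well above background on 3 of 3 controls and only 2 of 3 knockouts. They entered the test through the group in which they were high, so these values are a description. These 4 genes were singled out after their values were seen. Efna1, Efna3 and Efna4 are direct neighbours on chromosome 3. Beside the difference of 1.09 at Efna1, that at Efna4 was 0.03 (SE 0.15, adjusted p 0.912), and neither Efna3 probe was well above background on more than 1 array of a genotype.

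Genes that carry the signal onward were read from a list of 40, among them the adaptors Nck1 and Nck2, the kinases Src and Yes1, the exchange factors Ngef (ephexin), Vav2, Vav3 and Tiam1, and Adam10, the protease that cuts ephrins and Eph receptors. Of 38 tested, 20 had higher and 18 lower means, with a median of 0.13. With quantile normalization 18 were higher and the median was -0.03. In limma 0 were called and 9 had an unadjusted p under 0.05. The lowest adjusted p was that of Ngef, an exchange factor that acts downstream of EphA receptors, with a difference of 2.50 (SE 0.52, adjusted p 0.0526). Src differed by 0.88 (SE 0.20, adjusted p 0.0610), Pak1 by 1.28 (SE 0.33, adjusted p 0.0739) and Vav3 by -0.94 (SE 0.28, adjusted p 0.0945). These 4 were picked by their p-values after the values were seen. Adam10 differed by 0.25 at its brighter probe (SE 0.20, adjusted p 0.480).

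Ephb2 and Ephb3 are Wnt targets, and 19 other Wnt target genes were set beside them. Of these 7 were higher and 12 lower, with a median of -0.21 that became -0.04 without knockout replicate 1 and -0.08 without control replicate 3. Rnf43, an E3 ligase that removes Wnt receptors, rose by 2.11 (SE 0.34, adjusted p 0.0349), and a dimmer probe of Cd44 fell by 1.48 (SE 0.25, adjusted p 0.0369). The call of Rnf43 was lost with no background filter, and on dropping either of control replicates 2 and 3 or either of knockout replicates 1 and 3. Axin2, the usual readout of Wnt signalling, differed by -0.55 (SE 0.36, adjusted p 0.376) and the crypt base stem cell marker Lgr5 by -0.20 (SE 0.30, adjusted p 0.696).

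Epithelial markers differed in the same direction as most members. All 9 tested pan-epithelial markers (among them Krt8, Krt18, Cldn3, Cldn7, Elf3, Cdx1 and Cdx2) had higher means in knockouts, with a median of 1.40 and a range of 0.68 to 1.98. In limma 0 were called and 5 had an unadjusted p under 0.05. Epcam and Cdh1 were above background on every array but had too few spots free of outlier marks to be tested. The summed signal of the 9 tested markers, in multiples of the array's 75th percentile, was 12.5 to 44.6 in controls and 54.7 to 73.9 in knockouts. Mean log2 signals of these markers were 1.94, -0.32 and 1.45 in controls against 2.74, 2.36 and 2.30 in knockouts, so control replicate 2 stood far below the others. The same array was the lowest control for 8 of the 10 members, for 9 of 9 epithelial markers and for 32.4% of all tested genes. Without it the median of the members was 0.60 over 8 genes and that of the epithelial markers 0.73 over 8 genes, and Ephb2 differed by 1.24, Epha1 by 1.1 and Efnb1 by 0.84, with 0 members called.

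**Figure D3:**
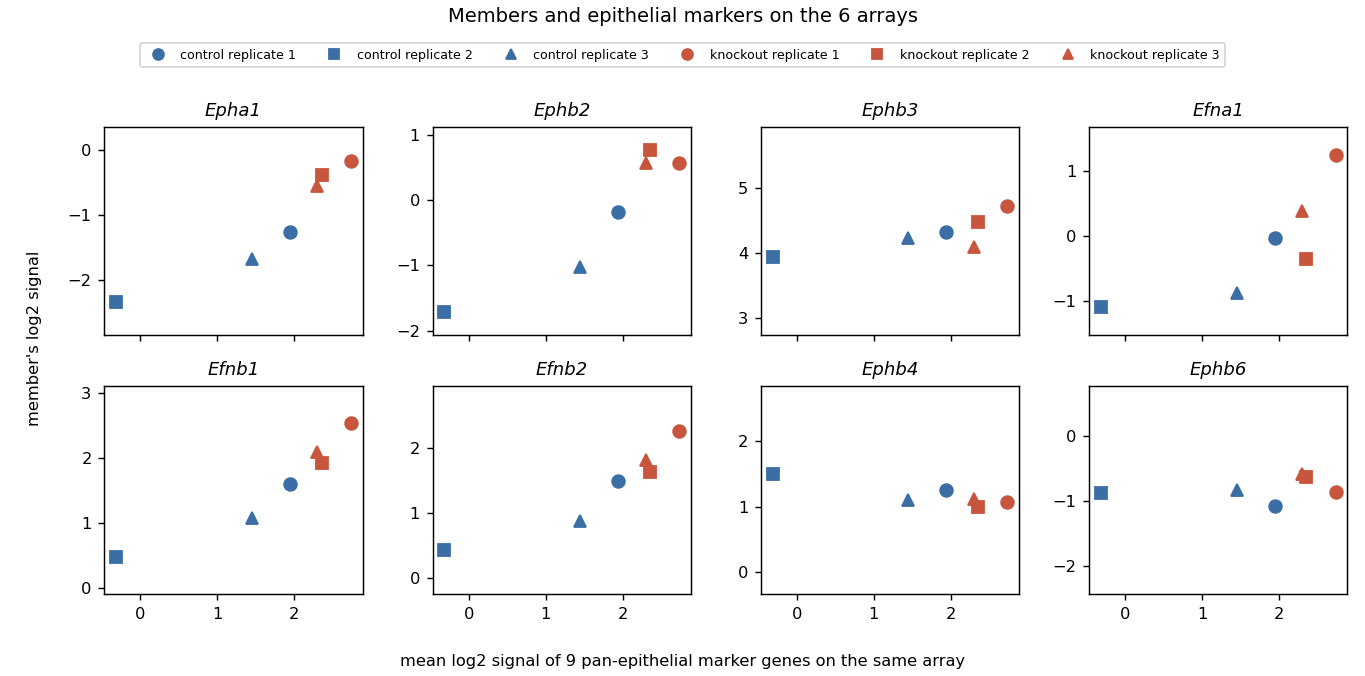
Log2 signal of 8 members (y axes, each spanning the same range) against the mean log2 signal of 9 pan-epithelial marker genes on the same array (x axis), for 3 controls (blue) and 3 knockouts (red), with 1 symbol per array. Epha1, Ephb2, Ephb3, Efna1, Efnb1 and Efnb2 are lowest on control replicate 2, the array with the lowest marker mean of -0.32, whereas Ephb4 is highest there.

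Set against these epithelial markers on the same array, the differences of the 9 members with higher means were smaller or of opposite sign. Except at Epha2, they moved most when control replicate 2, which had the low marker mean, was left out. The marker mean was higher by 1.44 in the knockout, and relative to it Epha1 differed by -0.05, Ephb2 by 0.18, Efnb1 by -0.31, Efna1 by -0.35 and Efnb2 by -0.48, all with overlapping groups. The dimmer Ephb2 probe differed by -0.76, also with overlap. Without control replicate 2 the values relative to the markers were 0.33 for Epha1, 0.48 for Ephb2 (-0.22 at its dimmer probe), 0.07 for Efnb1, 0.11 for Efna1 and -0.06 for Efnb2. The signs of Epha1, Efnb1 and Efna1 on this scale therefore depended on that array. Without it Epha1 alone among these had no overlap. The sign of the brighter Ephb2 probe turned when control replicate 3 was left out, to -0.059. Ephb3 differed by -1.17 relative to the markers, at 2.37, 4.26 and 2.77 in controls and 1.99, 2.11 and 1.79 in knockouts, without overlap. Epha4 differed by -1.15 on this scale, and Ephb4 by -1.66 and -2.06 at its brighter and dimmer probe, all without overlap. Without control replicate 2 these values were -0.61 for Ephb3, -0.66 for Epha4 and -0.88 and -1.29 for the Ephb4 probes, still without overlap. Epha2 differed by -1.26 relative to the markers, by -0.03 without knockout replicate 1 and by -2.14 without knockout replicate 3, with overlap each time. Ephb6 differed by -1.20 and -1.02 at its brighter and dimmer probe, with overlap, and by -0.50 and -0.39 without control replicate 2. These values describe unequal size of difference within an array and do not say which gene changed.

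Endothelial markers differed the other way. All 11 tested had lower means in knockouts, with a median of -1.11. In limma 0 were called and 10 had an unadjusted p under 0.05. Their summed signal was 18.0 to 19.4 in controls and 5.84 to 12.7 in knockouts. Of 8 arterial markers 6 were lower, with a median of -0.69, and Dll4 was called. That call was lost under the settings that lost Rnf43, and also with both arrays with most outlier spots left out. Their summed signal was 5.24 to 6.41 in controls and 5.00 to 5.51 in knockouts. Of 6 venous markers 5 were lower, with a median of -1.0. At the brightest probe 0 of them were called, and Selp was called at a dimmer probe. Their summed signal of 17.4 to 23.8 in controls and 19.0 to 26.3 in knockouts overlapped. Their mean log2 signals did not overlap, at -0.49, 0.01 and -0.29 in controls and -1.42, -1.13 and -0.90 in knockouts. Ephb4 lay on the side of these markers and Efnb2, the arterial ligand, on the other side. Relative to the endothelial mean Ephb4 was higher by 0.86 at its brighter probe, without overlap, and by 0.46 at its dimmer one, with overlap. Leaving out knockout replicate 1, which had the lowest endothelial mean, gave a median of -0.72 over 10 endothelial markers. On that scale the brighter Ephb4 probe then differed by 0.48 and the dimmer one by 0.00023.

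**Figure D4:**
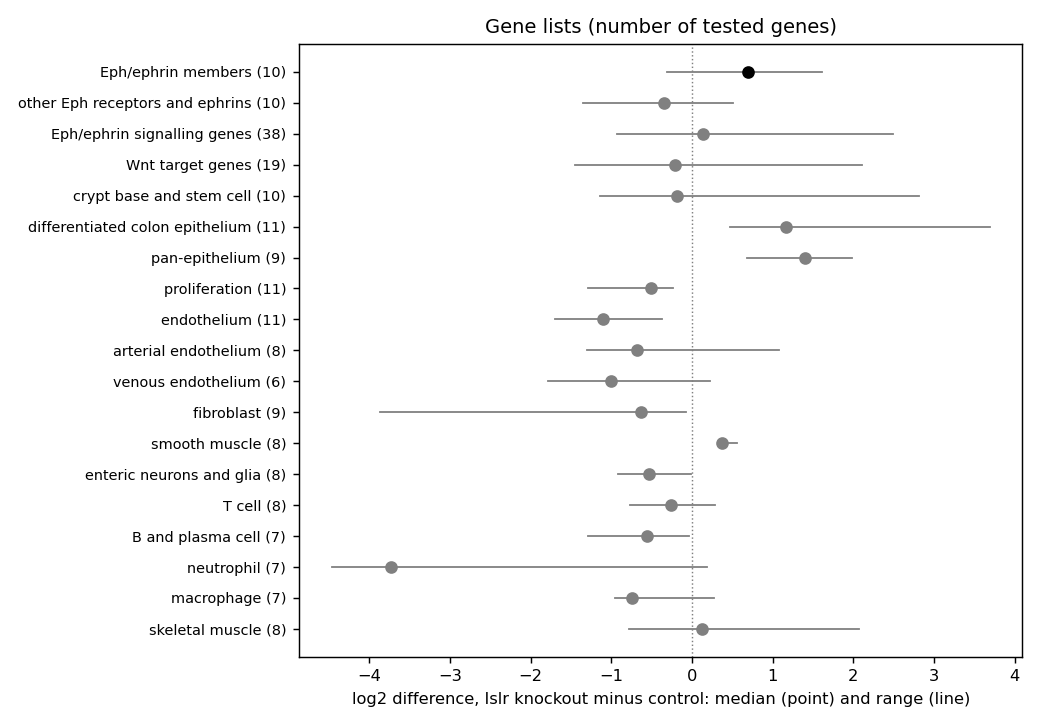
Median (point) and range (line) of the log2 difference, Islr knockout minus control, over the tested genes of each list (number in brackets). The Eph and ephrin members, at 0.69, lie below the epithelial lists at 1.16 and 1.40, while the medians of the endothelial, fibroblast and neutrophil lists lie below 0.

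Markers of the other compartments showed the labelled tissue, with epithelium, muscle, stroma and immune cells all measured. The 11 tested markers of differentiated colon epithelium all had higher means, with a median of 1.16, and their summed signal was 20.6 to 70.0 in controls and 78.2 to 106 in knockouts. Without control replicate 2 their median was 0.53 over 8 genes. Of 10 crypt base and stem cell genes 4 were higher, with a median of -0.19 that became 0.03 without knockout replicate 1. Rnf43 was called higher and Dll1 and Dll4 lower. Rnf43 is also in the Wnt target list and Dll4 in the arterial list, so these are the same calls. Under the settings that lost Rnf43, 0 of the 8 to 10 genes of the list then tested were called. All 11 proliferation genes and all 9 fibroblast genes had lower means, with medians of -0.51 and -0.63, and 2 fibroblast genes (Pdgfrb and Twist2) were called. For proliferation genes, dropping control replicate 1 gave a median of -1.08 and dropping knockout replicate 1 gave -0.28. Fibroblast calls numbered 0 without control replicate 3 or knockout replicate 3 and 1 without any other single array. Of 7 neutrophil genes 5 fell (S100a8, S100a9, Retnlg, Cxcr2 and Mmp8) and 2 had higher means, with a list median of -3.73. The summed signal of all 7 was 27.8 to 29.2 in controls and 18.5 to 20.3 in knockouts. Neutrophil calls numbered 0 without control replicate 2 and 1 without control replicate 3 or knockout replicate 3. Of 7 macrophage genes 5 were lower, with a median of -0.75 and 0 called, and the median was -0.46 without knockout replicate 3. All 8 smooth muscle genes had higher means, with a median of 0.38. The part that these compartments had in the members' values was not tested.

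Genes with the most similar pattern were sought for 1 receptor and 1 ligand, as the smallest root mean square distance between centred log2 values over the 6 arrays among 13680 genes measured on all of them. For Ephb2 they were Mpp3 (0.13), Pramel25 (0.14) and A230107N01Rik (0.16). For Efnb2, with its outlier spots kept, Fuca2 (0.05) and Sgsm3 (0.07) were the nearest.

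Whether members were called depended on the setting. A member counts as called if at least 1 of its probes passed, whereas the shares beside these counts are over single probes. In the reported fit the share was 5% over genes counted in that way and 3.97% over probes. With array weights 6 members were called (Epha1, Ephb2, Efna1, Efnb1 and Efnb2 higher, Ephb4 lower), where 23.0% of all tested probes were called. Without control replicate 1 the calls were Epha1, Ephb2 and Efnb1, where 5.83% of probes were called. Leaving out any other single array called 0 members, and 0.126% to 3.58% of probes. Across 18 alternative settings at least 1 member was called in 8, in which 3.85% to 23.0% of probes were called.

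**Figure D5:**
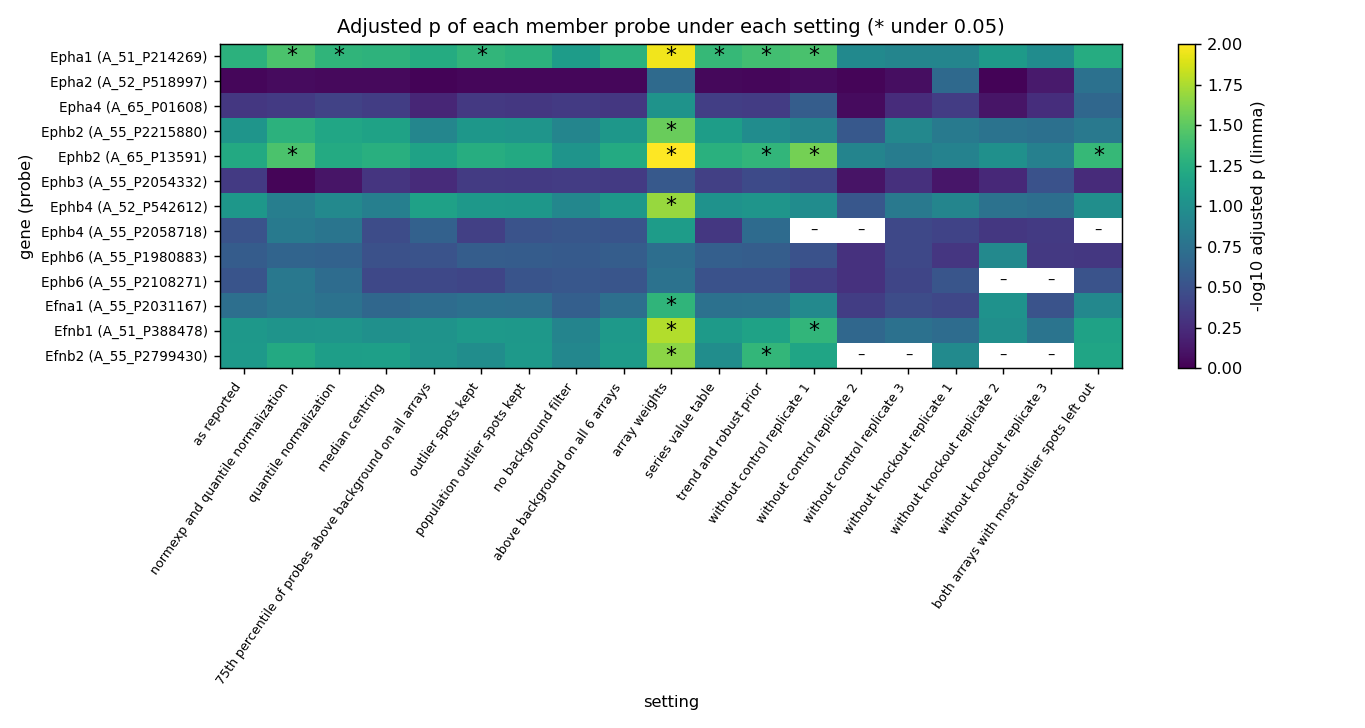
Adjusted p of each member probe (rows) under the reported and each alternative setting (columns), as -log10 by colour, with a star where it is under 0.05 and a dash where the probe could not be tested. Stars fall on Epha1, Ephb2, Efnb1, Efnb2, Efna1 and Ephb4, on the last 2 under array weights alone, and Epha2, Epha4, Ephb3 and Ephb6 have none.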

How the data were processed

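Colon RNA of 3 control and 3 Islr knockout mice was hybridised to 1 array each. The deposited processed signal is an intensity on a linear scale, background-subtracted and detrended in Agilent Feature Extraction 11.5.1.1 (array design 074809, red channel only) with no scaling across arrays, per the file headers; the submitters' processing notes name version 10.7, and the labels give the green dye Cy3. Probes were named through RefSeq accessions (59.7% of 56605 named, GRCm38.p6). No coordinates of probes are given, since the files place them on mm9.

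Signals were taken to log2, each array's 75th percentile over 59305 non-control spots was subtracted, and spots marked non-uniform or population outliers were treated as missing. Tested probes exceeded background clearly on all 3 arrays of 1 genotype or both and had 2 or more usable values in both. limma 3.58.1 in R 4.3.3 (lmFit, eBayes, two-sided, no covariate) was run over all tested probes with Benjamini-Hochberg adjustment at 5%, and was tested on simulated data. A gene is represented by its brightest tested probe, and every member probe is given. Precision is limited by the number of arrays, 3 a group. Genes other than members were named from lists, as called members of those lists or always (Axin2, Lgr5, Adam10), with additions marked as such; 1 gene with a pattern like that of Efnb2 is not reported here. The members and lists were chosen with earlier results of these data known. The alternatives were other background corrections, scalings, outlier and dimness filters, array weights, a trended prior, the authors' deposited value table (also intensity) and leaving out each array; leaving out the 2 arrays with most outlier spots together, and leaving out arrays for values relative to markers, were chosen after seeing the data.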

Additional observations from a re-analysis of the deposited data

How the results depend on the processing

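The number of called probes, 1403 as reported, was 2771 with normexp and quantile normalization, 2185 with quantile normalization, 2249 with median centring, 484 with no background filter, 8119 with array weights and 2274 from the series value table. Leaving out 1 array at a time gave 40 (without knockout replicate 3) to 2114 (without control replicate 1). The number of members called was 0 as reported, where 3.97% of all tested probes were called. Shares in brackets below are likewise over single probes, whereas a member needs only 1 called probe. With normexp and quantile normalization 2 members were called (7.84%), and with quantile normalization 1 (6.18%). Keeping outlier spots gave 1 (4.85%), array weights 6 (23.0%) and a trended and robust prior 3 (5.53%). The count was 1 from the series value table (5.66%). It was 0 to 3 with 1 array left out (0.126% to 5.83%), and 1 with both arrays with most outlier spots left out (3.85%). The members' median, 0.69, was 1.14 with array weights and 1.06 with those 2 arrays left out, and 0.42 to 1.06 with 1 array left out. The number of members without overlap, 6, was 4 to 7 with 1 array left out. Smaller groups separate more easily by chance, and in some of these settings fewer members could be tested. No share of all tested genes without overlap is given for these settings, so the counts without overlap do not show whether the separation was stable.

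Among single members Ephb3 turned to -0.021 under normexp and quantile normalization, and Epha2 ranged from -0.62 to 1.28 with 1 array left out. It turned to -0.19 when control replicate 2 was left out, and to -0.12 and -0.62 when knockout replicates 2 and 3 were. The cause was not tested. Epha1, Epha4, Ephb2, Ephb6, Efna1 and Efnb1 stayed higher and Ephb4 lower in every alternative that could be fitted. A kept sign was thus also seen at Epha4 and Ephb6, whose adjusted p in the reported limma fit was 0.261 to 0.470. Efnb2 could not be tested without control replicate 2 or 3 or knockout replicate 2 or 3. No paired analysis was possible because replicate numbers only name the animals. All 13 member probes exceeded background clearly on each of the 6 arrays.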
